A study of Mus musculus with 10 samples.

Results

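The lining and the pericyte coat of brain blood vessels were followed through 10 genes in the whole hippocampus of female Balb c/J mice. The genes are Kdr, Flt1, Tek, Pecam1, Cldn5, Slco1a4 and Abcb1a for endothelial cells and Pdgfrb, Rgs5 and Vtn for pericytes. They were read by every probe set, a group of short probes designed on 1 transcript, that the annotation of the array assigns to 1 of these symbols and to no other gene. This gave 19 probe sets out of 45037, for 10 of the 18193 genes named on the array, with 11 for the endothelial and 8 for the pericyte genes. Kdr, Tek, Pecam1, Cldn5 and Slco1a4 have 1 probe set each, Abcb1a, Pdgfrb and Vtn have 2, and Flt1 and Rgs5 have 4.

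The mice are inbred, were bought from 1 supplier and were born on the same day. They were ranked by a composite of open field measures taken over several days and lighting conditions, and 5 mice are labelled High Exploration and 5 Low Exploration. The labels name no agent and no altered allele for either group, both share the strain and the sex, and the age at dissection is not given in the sources used here. Each mouse has its own array, so that the tests below measure the spread between mice together with that of the arrays, and 5 arrays per group limit the precision of every value.

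Endothelial cells line the vessel wall and, in the brain, close it with tight junctions and move nutrients and drugs across it through dedicated transporters, which together form the blood-brain barrier. Vascular endothelial growth factor acts on them through the receptors encoded by Kdr and Flt1, and angiopoietins act through the receptor encoded by Tek. Pericytes are the mural cells of capillaries, and they are recruited to the vessel by platelet-derived growth factor from the endothelium, which they sense with the receptor encoded by Pdgfrb. In whole tissue, fewer cells of a type and less RNA per cell cannot be told apart.

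None of the 19 probe sets passed the test between the groups. Their limma adjusted p-values (Benjamini-Hochberg over all 45037 probe sets) ran from 0.143 to 0.936, and 32 of all probe sets, 0.0711%, passed. Kdr and 1 of 4 Flt1 probe sets were lower in High Exploration mice at an unadjusted p under 0.05, both Pdgfrb probe sets were higher, 1 of them at that level, and the 4 Rgs5 probe sets split into 2 higher and 2 lower. In all, 4 of 19 were lower at that unadjusted level, where 16.8% of all probe sets were, and 1 was higher, where 4.48% were. For no member did the groups stay apart on all arrays, which 6.01% of all probe sets did.

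The mean was lower in High Exploration mice for 12 of the 19 and higher for 7, while 69% of all probe sets were lower. The median difference was −0.31 for the 19 and −0.47 for all probe sets, in units of log2 signal, where 1 unit is a 2-fold change of signal. The medians of the endothelial and the pericyte probe sets had opposite signs in the deposited signals, but not once the hybridisation controls of the arrays were set equal, where the endothelial median turned to 0.25. Of the 11 endothelial probe sets 9 were lower and 2 higher, with a median of −0.37 and a range from −1.68 to 1.19. Of the 8 pericyte probe sets 3 were lower and 5 higher, with a median of 0.39 and a range from −2.31 to 1.27. The difference between both sets of genes was not tested, because it would be a score over the members.

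**Figure D1:**
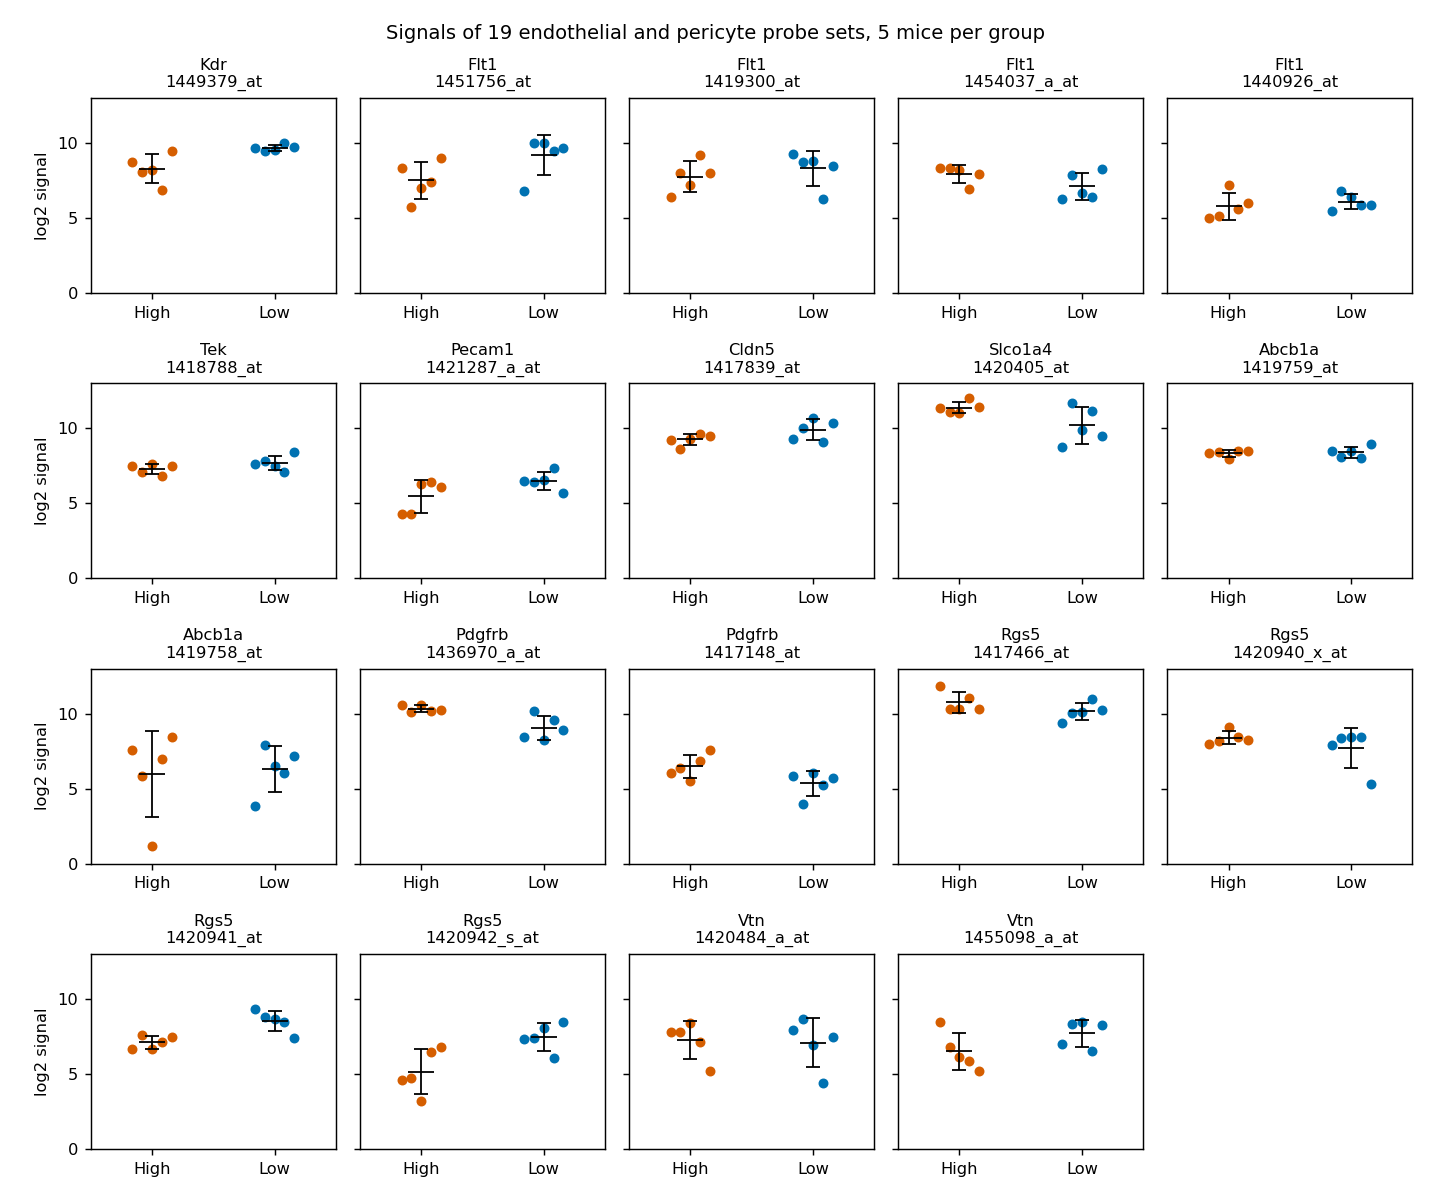
Log2 signal (vertical axis, same scale in every panel) of the 19 probe sets of the 10 genes, with 1 point per mouse, High Exploration in orange and Low Exploration in blue, and a bar for the mean of 5 mice with its SD. The points of both groups overlap in every panel, and Kdr and Pdgfrb 1436970_a_at are tight in 1 group and spread in the other.

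The arrays of the groups differed in ways that touch each of these values. The signals had been scaled to a common trimmed mean by array, and the median log2 signal was nevertheless 7.16 to 7.68 on High Exploration arrays and 7.83 to 8.09 on Low Exploration arrays. Bacterial hybridisation controls, 9 probe sets added in equal amounts before hybridisation, read 13.06 to 13.85 in High and 13.74 to 14.54 in Low Exploration mice. The poly-A controls, 12 probe sets, read 11.70 to 12.95 and 13.46 to 14.58, and the Gapdh 3′ probe set exceeded the 5′ one by 3.96 to 5.21 and 3.49 to 4.06. Setting the hybridisation controls equal adds 0.63 to every log2 difference and moves the median of all probe sets from −0.47 to 0.16, and centring each array on its median adds 0.54. The part of these array differences in the results was not tested, and a negative member difference smaller than 0.63 changes its sign under equal controls. With the level of these controls as a covariate 6 of the 19 differences changed sign, Flt1 1451756_at, Cldn5, both Abcb1a probe sets, Rgs5 1420940_x_at and Vtn 1420484_a_at.

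Kdr encodes the main signalling receptor for vascular endothelial growth factor. On its probe set, 1449379_at, the log2 signals were 8.72, 8.09, 8.21, 6.87 and 9.49 in High Exploration mice and 9.64, 9.46, 9.52, 9.97 and 9.74 in Low Exploration mice. The Low Exploration arrays lay within a narrow band and 4 of 5 High Exploration arrays lay below all of them, the fifth being just inside the band. The means were 8.28 ± 0.96 and 9.67 ± 0.20 (SD, n = 5 each). The difference was −1.39 (SE 0.48, 95% interval −2.43 to −0.35), with an unadjusted p of 0.0131 and a limma adjusted p of 0.158. It kept its sign under each of the scalings tried, but shrank to −0.85 after median centring and to −0.76 at equal hybridisation controls (limma adjusted p = 0.378 and 0.477). Without any single array it also kept its sign and ran from −1.69 to −1.04.

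Flt1 encodes another receptor for the same growth factor, which binds it tightly, signals weakly and also exists as a secreted form made from shorter transcripts. Its 4 probe sets did not read alike. Probe set 1451756_at gave 8.33, 5.74, 6.99, 7.43 and 9.0 in High Exploration mice and 6.82, 9.99, 10.00, 9.45 and 9.63 in Low Exploration mice, a difference of −1.68 (SE 0.73, unadjusted p = 0.0397, limma adjusted p = 0.216). With the level of the hybridisation controls as a covariate it was 0.017. All Low Exploration mice but replicate 1 lay above every High Exploration mouse, and without that array the difference was −2.27. Probe set 1454037_a_at went the other way, with 8.33, 8.33, 8.16, 6.89 and 7.93 against 6.29, 7.83, 6.67, 6.40 and 8.28. It differed by 0.83 (SE 0.51, limma adjusted p = 0.349), and only 2 High Exploration arrays were above all Low Exploration arrays. The remaining probe sets, 1419300_at and 1440926_at, differed by −0.56 (SE 0.65) and −0.31 (SE 0.50), with limma adjusted p-values of 0.631 and 0.737. Both signs turned once the hybridisation controls were set equal, to 0.070 and 0.32.

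The gap between 1451756_at and 1454037_a_at on the same array does not depend on how that array was scaled. It was −2.58 to 1.07 in High Exploration mice and 0.53 to 3.32 in Low Exploration mice, so that the effects of the group on the probe sets differed by −2.52 (exact permutation test, 2-sided, p = 0.0238, adjusted p = 0.0714 over 15 pairs). The files do not say which Flt1 transcripts either probe set matches.

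Tek encodes the angiopoietin receptor of endothelial cells. Probe set 1418788_at read 7.49, 7.06, 7.64, 6.82 and 7.51 in High and 7.60, 7.80, 7.48, 7.09 and 8.42 in Low Exploration mice. The groups overlapped, with 2 High Exploration arrays below all Low Exploration arrays, and the difference of −0.37 (SE 0.40, limma adjusted p = 0.593) turned to 0.25 at equal hybridisation controls.

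Among genes of cell contact, Pecam1 encodes an adhesion molecule that endothelial cells share with platelets and white blood cells, and Cldn5 the claudin that seals the tight junctions of brain endothelium. Pecam1 1421287_a_at read 4.26, 4.25, 6.29, 6.39 and 6.11 in High and 6.46, 6.39, 6.57, 7.35 and 5.67 in Low Exploration mice. High Exploration replicates 1 and 2 were about 2 units below the rest, and the difference was −1.03 (SE 0.56, limma adjusted p = 0.298) on a probe set whose mean signal was at percentile 21.3 of all probe sets. Cldn5 1417839_at read 9.21, 8.64, 9.31, 9.63 and 9.48 in High and 9.27, 10.05, 10.72, 9.10 and 10.38 in Low Exploration mice. Of the Low Exploration arrays 3 exceeded all High Exploration arrays, and the difference was −0.65 (SE 0.44, limma adjusted p = 0.394), which becomes −0.023 at equal hybridisation controls.

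Among the transporters, Slco1a4 encodes an organic anion transporter of the barrier and had a bright signal, at percentile 93.3 of all probe sets. Its log2 signals on 1420405_at were 11.38, 11.09, 11.04, 12 and 11.40 in High Exploration mice and 8.74, 11.69, 9.89, 11.16 and 9.47 in Low Exploration mice. The High Exploration arrays lay close together, while 3 Low Exploration arrays lay below all of them and 2 lay among them. The difference was 1.19 (SE 0.56, 95% interval −0.026 to 2.41, unadjusted p = 0.0544, limma adjusted p = 0.243).

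Abcb1a encodes P-glycoprotein, the pump that returns many drugs to the blood. Probe set 1419759_at had the smallest SE of the members, 0.37, and read 8.35, 8.41, 7.92, 8.49 and 8.47 in High and 8.48, 8.06, 8.45, 7.99 and 8.97 in Low Exploration mice. Its difference was −0.061 with a 95% interval from −0.86 to 0.74 (limma adjusted p = 0.936), which spans changes of up to that size in both directions, and it was 0.57 at equal hybridisation controls. The dimmer probe set 1419758_at read 7.59, 5.86, 1.15, 6.98 and 8.42 against 3.83, 7.92, 6.52, 6.06 and 7.16. Its SDs of 2.87 and 1.55 were the widest of the members in High Exploration mice and among the widest in Low, and the difference of −0.30 (SE 1.21, limma adjusted p = 0.902) turned to 0.91 without High Exploration replicate 3, whose signal was near 0 on this scale.

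Pdgfrb encodes the receptor by which pericytes respond to platelet-derived growth factor. On probe set 1436970_a_at the log2 signals were 10.57, 10.12, 10.54, 10.19 and 10.26 in High Exploration mice and 8.46, 10.15, 8.25, 9.57 and 8.88 in Low Exploration mice. Here the High Exploration arrays were the narrow group, and 4 of them lay above every Low Exploration array, with replicate 2 just under Low Exploration replicate 2. The means were 10.34 ± 0.21 and 9.06 ± 0.79 (SD, n = 5 each), and the difference was 1.27 (SE 0.44, 95% interval 0.32 to 2.23, unadjusted p = 0.0131, limma adjusted p = 0.158).

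The other Pdgfrb probe set, 1417148_at, is among the dim ones, at percentile 20.3. It read 6.07, 6.40, 5.50, 6.85 and 7.56 in High and 5.87, 3.98, 6.06, 5.21 and 5.68 in Low Exploration mice. Again 4 High Exploration arrays lay above all Low Exploration arrays, and the difference was 1.12 (SE 0.52, limma adjusted p = 0.241). The effects on both Pdgfrb probe sets differed by 0.16 (exact permutation p = 0.825, adjusted p = 0.897 over 15 pairs). Averaged on the log2 scale, Pdgfrb differed by 1.20 (SE 0.29), with a limma adjusted p of 0.124 in the fit of averaged genes.

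Among mice of the same group, however, the Pdgfrb probe sets ran against each other. Taken as deviations from the group means, they had a Pearson's r of −0.786 over the 10 arrays, with an exact permutation p of 0.0025 and an adjusted p of 0.0375 over the 15 pairs of probe sets of the same gene. Spearman's rho was −0.721 (exact permutation p = 0.0292, adjusted p = 0.326). The call was lost without the 2 arrays farthest from the median, where r was −0.548 (exact permutation p = 0.0556, n = 8, and 0.417 after adjustment). Among the 5 Low Exploration mice the order on one probe set was the reverse of that on the other. The median r of the 15 pairs was 0.024, and 8 of them were positive. These pairs, most of them of Flt1 and Rgs5, thus did not in general rank the mice of a group alike.

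**Figure D2:**
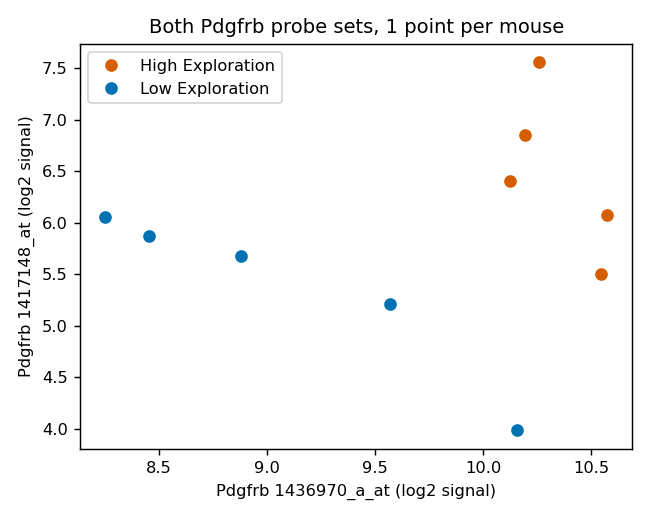
Log2 signal of Pdgfrb 1436970_a_at (horizontal axis) and of Pdgfrb 1417148_at (vertical axis), with 1 point per mouse, High Exploration in orange and Low Exploration in blue. The High Exploration points sit towards the upper right, while within the Low Exploration mice the second probe set is lower where the first is higher (r = −0.786 over both groups after the group means were removed).

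Rgs5 encodes a regulator of G-protein signalling that is abundant in brain pericytes, and its 4 probe sets divided. The bright 1417466_at read 11.86, 10.31, 10.29, 11.02 and 10.28 in High and 9.36, 10.06, 10.09, 10.98 and 10.25 in Low Exploration mice. High Exploration replicates 1 and 4 were above all Low Exploration arrays, and the difference was 0.60 (SE 0.46, limma adjusted p = 0.451), or 0.33 without replicate 1. Probe set 1420940_x_at read 7.98, 8.20, 9.09, 8.44 and 8.23 against 7.92, 8.39, 8.41, 8.43 and 5.31. Its difference of 0.70 (SE 0.60, limma adjusted p = 0.506) rested on Low Exploration replicate 5, and without that array it was 0.10.

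The other Rgs5 probe sets were lower in High Exploration mice and had the smallest p-values of all members. Probe set 1420941_at read 6.68, 7.57, 6.69, 7.10 and 7.46 in High and 9.31, 8.77, 8.69, 8.46 and 7.43 in Low Exploration mice. Only Low Exploration replicate 5 reached into the High Exploration range, and the difference was −1.43 (SE 0.44, unadjusted p = 0.00657, limma adjusted p = 0.145). Probe set 1420942_s_at read 4.63, 4.70, 3.17, 6.48 and 6.77 against 7.32, 7.40, 8.04, 6.09 and 8.47, a difference of −2.31 (SE 0.70, unadjusted p = 0.00591, limma adjusted p = 0.143). This was the largest difference of the 19, on a probe set at percentile 27.1, and only Low Exploration replicate 4 overlapped the High Exploration arrays. Probe sets 1420940_x_at, 1420941_at and 1420942_s_at have the same source accession in the platform annotation, and the endings x and s mark probe sets with probes that match more than 1 transcript sequence. Whether these sequences include transcripts of other genes was not tested.

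Gaps between Rgs5 probe sets on the same array were compared for the 6 pairs, and the groups stayed apart for 1 of them. The gap of 1420940_x_at over 1420941_at was 0.63 to 2.40 in High Exploration mice and −2.12 to −0.024 in Low Exploration mice, with no overlap. The difference of 2.12 had an exact permutation p of 0.00794, the smallest that 5 arrays against 5 allow, and an adjusted p of 0.0714. The gaps of 1417466_at over 1420941_at, of 1417466_at over 1420942_s_at and of 1420940_x_at over 1420942_s_at differed by 2.03, 2.92 and 3.01 (exact permutation p = 0.0238 and adjusted p = 0.0714 for each), and the groups overlapped. The gaps of 1417466_at over 1420940_x_at and of 1420941_at over 1420942_s_at differed by −0.091 and 0.89 (exact permutation p = 0.897 and 0.333). With the Flt1 pair, 5 of 15 pairs of probe sets of the same gene had an unadjusted p under 0.05 and none passed after adjustment. The Rgs5 pairs among them share probe sets and are not independent. The share over all such pairs on the array was not computed, so whether this count is unusual cannot be read. A single pair at the smallest p would have an adjusted p of 0.119 on its own.

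**Figure D3:**
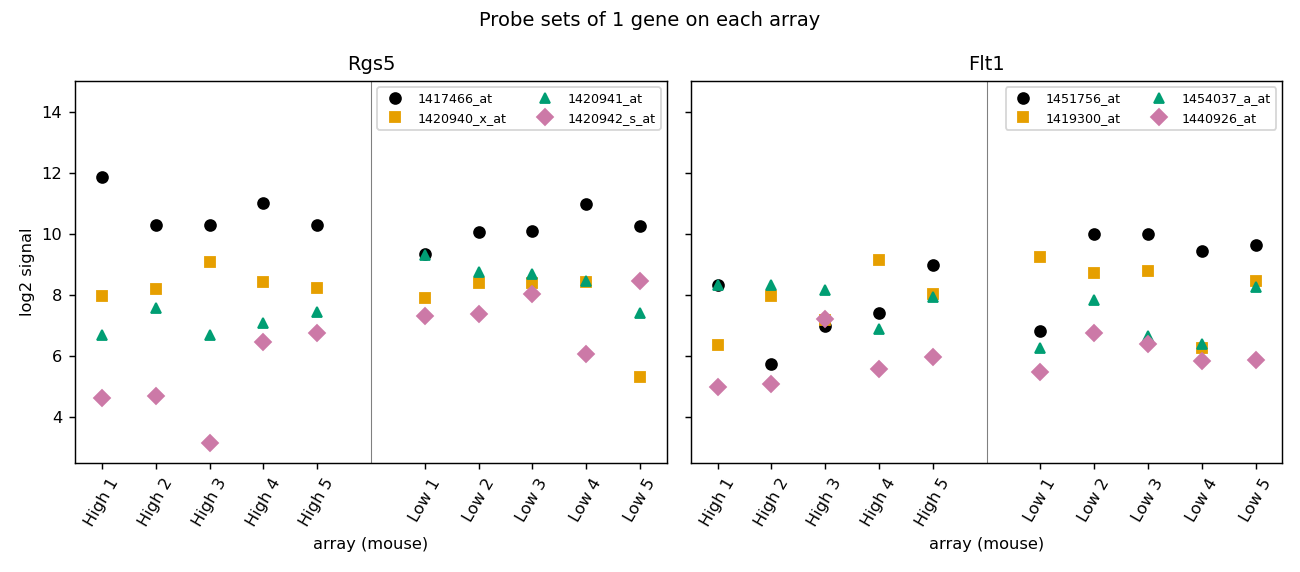
Log2 signal (vertical axis) of the 4 probe sets of Rgs5 and the 4 of Flt1 on each of the 10 arrays (horizontal axis), with 1 symbol and colour per probe set. On High Exploration arrays Rgs5 1420940_x_at sits above 1420941_at by 0.63 to 2.40, and on Low Exploration arrays it sits below it by up to 2.12.

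Vtn encodes vitronectin, an adhesive matrix and plasma protein that pericytes make in the brain. Probe set 1420484_a_at read 7.81, 7.82, 8.41, 7.10 and 5.19 in High and 7.95, 8.65, 6.91, 4.42 and 7.47 in Low Exploration mice, a difference of 0.19 (SE 0.80, limma adjusted p = 0.909) whose sign turned without Low Exploration replicate 4 (−0.48) or High Exploration replicate 3 (−0.10). Probe set 1455098_a_at read 8.49, 6.81, 6.11, 5.88 and 5.20 against 6.97, 8.35, 8.49, 6.54 and 8.25. Of the High Exploration arrays 3 lay below all Low Exploration arrays, and the difference was −1.22 (SE 0.64, limma adjusted p = 0.283). The effects on both probe sets differed by 1.41 (exact permutation p = 0.111, adjusted p = 0.238 over 15 pairs).

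**Figure D4:**
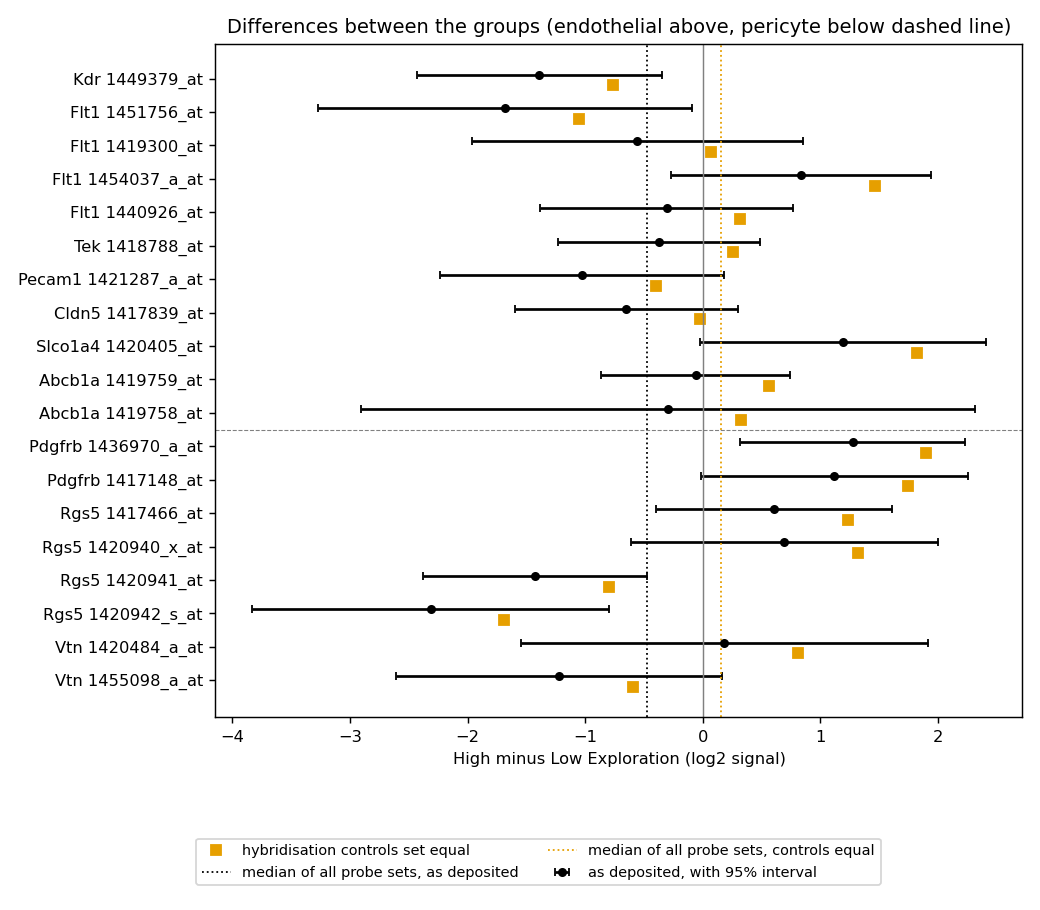
Difference in log2 signal between High and Low Exploration mice (horizontal axis) for the 19 probe sets, with black points for the deposited signals and their 95% intervals from limma, orange squares after the hybridisation controls were set equal, and dotted lines at the median of all probe sets under each scaling. The deposited values range from −2.31 to 1.27. Under both scalings 14 of the 19 keep their side of 0, among them Kdr, Rgs5 1420941_at, Rgs5 1420942_s_at and both Pdgfrb probe sets.

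Differences in the whole table depended on the brightness of a probe set, mainly among the brightest, which bears on how each member reads. In the 10 deciles of mean signal, a description chosen after the data were seen, the median difference was −0.62 in the lowest and stayed between −0.65 and −0.55 up to the seventh. It was −0.47 in the eighth, −0.17 in the ninth and 0.43 in the highest. Across all probe sets Spearman's rho between level and difference was 0.25, and across the 19 members it was 0.21. Genes and probe sets are not independent replicates, so no p is given. Against the median of its own decile, Kdr remained lower by 0.92 and Rgs5 1420942_s_at by 1.67, while Pdgfrb lay above it by 1.45 and 1.76 on its bright and dim probe sets. Slco1a4 lay 0.76 above and Rgs5 1417466_at 0.18 above the median of the highest decile.

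No pair of the 10 genes passed a test of whether its levels varied together among the mice of a group. For each gene the brightest probe set was used, and the group means were removed. Of 45 pairs 26 had a positive r, the median r was 0.040, and none passed after adjustment. The highest was between Slco1a4 and Pdgfrb, with r = 0.788 (exact permutation p = 0.0881, adjusted p = 0.838), rho = 0.709 (exact permutation p = 0.103) and r = 0.509 without the 2 arrays farthest from the median (exact permutation p = 0.542). The lowest was between Abcb1a and Pdgfrb, with r = −0.609 (exact permutation p = 0.168, adjusted p = 0.838), rho = −0.552 (exact permutation p = 0.125) and r = −0.911 without the 2 farthest arrays (exact permutation p = 0.156).

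Other genes of the vessel wall were read from lists, each gene by its brightest probe set. None of their genes passed the limma threshold. Of 38 measured of 40 wider endothelial genes, 17 were higher and 21 lower in High Exploration mice, with a median of −0.12. This median was −0.24 with all probe sets of a gene averaged, and it turned to 0.041 without High Exploration replicate 5 and to 0.037 without Low Exploration replicate 5. At an unadjusted p under 0.05, 5 of the 38 were higher and 4 lower, where 4.48% and 16.8% of all probe sets were. Foxq1, a forkhead transcription factor of brain endothelium, differed by −1.88 (SE 0.39, limma adjusted p = 0.0993), from 9.45 to 10.42 in Low to 7.49 to 8.69 in High Exploration mice, without overlap. Its other probe set gave 0.31. Tfrc, the transferrin receptor that carries iron into the brain, differed by 1.46 (limma adjusted p = 0.139) without overlap, but its other probe sets gave −1.35 and −0.82. Cdh5, the cadherin of endothelial junctions, was at −1.95 (limma adjusted p = 0.144) and −0.55 on another probe set, and Tjp1, a scaffold of tight junctions, at 1.48 (limma adjusted p = 0.164).

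The 19 wider mural genes divided into 6 higher and 13 lower, with a median of −0.31, where 69% of all probe sets were lower. Myh11, the myosin heavy chain of smooth muscle, had the largest difference of all the listed genes. It ranged from 4.49 to 5.23 in High and from 6.24 to 9.30 in Low Exploration mice, without overlap, a difference of −3.29 (SE 0.55, limma adjusted p = 0.0618), while its other probe set gave −0.91. Zic1, a zinc finger factor of mural and some neural cells, was at 1.86 (limma adjusted p = 0.134) without overlap and at −0.10 on its other probe set. Cspg4, the proteoglycan NG2 of pericytes and oligodendrocyte precursors, was at −1.30 (limma adjusted p = 0.211) and −1.06 on its other probe set. Tbx18, a T-box factor of mural cells, was at −1.37 (limma adjusted p = 0.284) and at 2.48 on its other probe set.

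Partners in the signalling of the members numbered 20, of which 7 were higher and 13 lower, with a median of −0.33. This split is likewise near the 69% of all probe sets that were lower. Those with the smallest p were Flt4, the lymphatic member of the Kdr family, at −2.29 (limma adjusted p = 0.120) without overlap but 0.25 on its other probe set, and Dll4, the Notch ligand of sprouting endothelium, at −1.97 (limma adjusted p = 0.125) and −0.41 on its other probe set. They were followed by Hif1a, the oxygen-sensitive factor that drives Vegfa, at 1.18 (limma adjusted p = 0.147) without overlap but −0.83 to 1.91 on its other probe sets, and Aplnr, the apelin receptor, at −2.24 (limma adjusted p = 0.150) and −1.72 on its other probe set. The ligands of the members, named for that role after their values were seen, were Vegfa, Vegfb, Vegfc and Pgf, each for Kdr, Flt1 or both, Angpt1 and Angpt2 for Tek, and Pdgfb for Pdgfrb. Vegfc was at 1.85 (SE 0.71, limma adjusted p = 0.180), with its other probe sets between −0.17 and 0.30. Vegfa was at −0.41 (SE 0.81), Vegfb at −0.81 (SE 0.94), Pgf at 0.49 (SE 0.64), Angpt1 at −0.87 (SE 0.51), Angpt2 at −0.15 (SE 0.50) and Pdgfb at −0.19 (SE 0.41), with limma adjusted p-values from 0.331 to 0.877. The other probe set was at −0.99 for Vegfa, −0.16 for Angpt1, −1.24 for Angpt2 and 0.83 for Pdgfb. With averaged probe sets Pdgfb was at 0.32. Setting the hybridisation controls equal turned these medians to 0.51 for the endothelial, 0.32 for the mural and 0.30 for the signalling genes, whereas the signalling median stayed negative after quantile normalisation and cyclic loess, at −0.078 and −0.086.

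**Figure D5:**
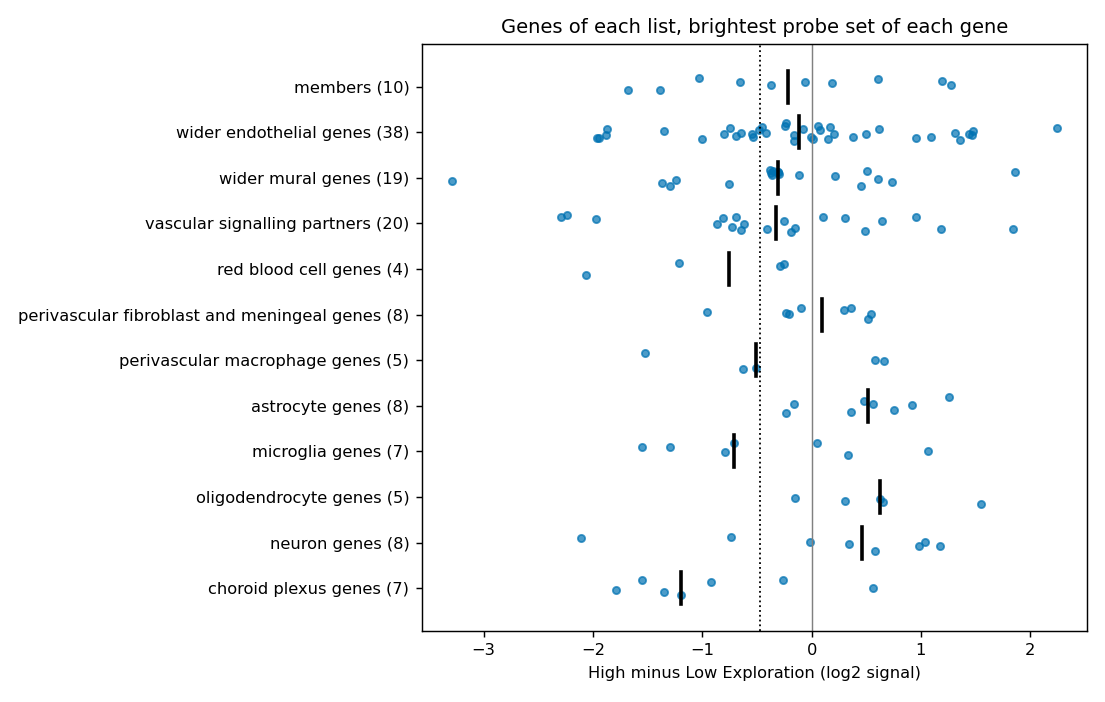
Difference in log2 signal between High and Low Exploration mice (horizontal axis) for the brightest probe set of each gene, 1 row per gene list with the number measured, black bars at the list medians, and a dotted line at the median of all probe sets, −0.47. The wider endothelial genes spread on both sides of 0 around a median of −0.12, and 6 of 8 astrocyte genes lie above 0 on these probe sets, against 3 of 8 with probe sets averaged.

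Markers of other cells of the hippocampus and its surroundings were read in the same way, and no gene among them passed. Of all probe sets 69% were lower in High Exploration mice, which stands beside each count below. That share depends on brightness, as 61.9% of the 22518 probe sets above the median of all means were lower. In the highest decile of mean signal the median difference was 0.43. Lists of bright genes are therefore not matched by the 69%. The brightest probe sets were used, and the balance of several lists changed when all probe sets of a gene were averaged, an alternative chosen after the data were seen. Astrocytes, whose endfeet cover the vessels, had 6 of 8 genes higher with a median of 0.52, but 3 of 8 and −0.12 with averaged probe sets, and the summed signal of the list was 54895 to 76725 in High and 27105 to 43575 in Low Exploration mice, without overlap. The sum is on the linear scale, and its brightest probe set was that of Gja1, the main astrocyte connexin. That probe set alone had log2 signals of 14.90 to 15.40 in High and 13.09 to 14.56 in Low Exploration mice. Gja1 was at 1.25 (limma adjusted p = 0.150) and −0.73 to 1.28 on its other probe sets, and Gjb6, another connexin, at 0.92 (limma adjusted p = 0.220). Neuron genes had 5 of 8 higher with a median of 0.46, but 2 of 8 and −0.23 with averaged probe sets. Slc17a7, the vesicular glutamate transporter, was at −2.11 (limma adjusted p = 0.134) without overlap and Neurod6, a pyramidal cell factor, at 1.18 (limma adjusted p = 0.155). All 8 neuron genes, among them Neurod6 and the dentate granule cell factor Prox1, were above the median signal of all probe sets, and their summed signal was 30854 to 57872 in High and 23654 to 31913 in Low Exploration mice.

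The lists most open to blood, meninges and choroid plexus in the dissection are the following. All 4 measured of 8 red blood cell genes were lower, with a median of −0.75, Hba-a1 at −2.06 (limma adjusted p = 0.152) and Hbb-b2 at −1.21 (limma adjusted p = 0.192) and −0.13 on its other probe set, and their summed signal of 431 to 1346 in High overlapped 972 to 2049 in Low Exploration mice. Perivascular fibroblast and meningeal genes had 4 of 8 higher and a median of 0.098, but 1 of 8 and −0.26 with averaged probe sets. Col1a1 was at −0.96 and Dcn at 0.52, with −0.44 and −0.90 on their other probe sets, and the list had a summed signal of 3755 to 15091 in High and 4728 to 6881 in Low Exploration mice. Choroid plexus genes had 1 of 7 higher and a median of −1.19, with Otx2 at −1.79 (limma adjusted p = 0.153) and Aqp1 at −1.35, although their summed signal was 20144 to 34212 in High and 16517 to 26685 in Low Exploration mice. The 1 higher gene was Ttr, the brightest of the list, at 0.57 (limma adjusted p = 0.405) and 0.97 to 1.35 on its other probe sets. Its log2 signals were 14.13 to 15.04 in High and 13.62 to 14.57 in Low Exploration mice. Thus the sum, which Ttr mostly carries, and the median of the choroid plexus list point to opposite sides.

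Perivascular macrophages had 2 of 5 genes higher and a median of −0.50, with Mrc1 at −1.52 and Pf4 at 0.66, the latter without overlap, and a summed signal of 1204 to 1635 in High and 823 to 1438 in Low Exploration mice. Microglia had 3 of 7 higher and a median of −0.71, with Cx3cr1 at −1.55 (limma adjusted p = 0.152) but 0.46 on its other probe set and Itgam at −1.30, and a summed signal of 9285 to 30285 against 22411 to 43779. Oligodendrocytes had 4 of 5 measured genes of 6 higher and a median of 0.63, with Mobp at 0.66 but −1.93 to 0.96 on its other probe sets and Mog at 1.55, and a summed signal of 49978 to 95577 against 42624 to 104883. Most of the microglia sum came from Csf1r, at −0.71 and −1.58 to 0.18 on its other probe sets. Most of the oligodendrocyte sum came from Mbp, at −0.15 and −1.60 to 0.92 on its other probe sets. At equal hybridisation controls the median of the perivascular macrophage list turned to 0.12, and the medians of the other lists of this paragraph and of the preceding pair kept their sign. The member genes themselves, summed over their brightest probe sets, were at 5997 to 9972 in High and 3854 to 9261 in Low Exploration mice, which overlapped. With averaged probe sets the oligodendrocyte list had 3 of 5 higher and a median of 0.13, the medians of the red blood cell, macrophage, microglia and choroid plexus lists stayed negative, and the 10 member genes had 2 higher, 8 lower and a median of −0.47, against 4, 6 and −0.22 on their brightest probe sets. No signal of any listed gene was 0, and the part of these other cells in the member values was not tested.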

How the data were processed

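Total RNA of whole hippocampus was hybridised to Affymetrix mouse arrays of 1 colour, 1 array per mouse. The authors deposited 1 intensity per probe set and array, the MAS5 signal on a linear scale, which corrects for background and mismatch probes and is scaled to a common trimmed mean without quantile normalisation. Low signals of this kind are noisy, and a rise of abundant transcripts lowers the rest. The labels name the standard labelling protocol and the methods of the study a double round of amplification, which is not settled here. Because the series' design text is about handled mice and CA1, groups follow the sample titles.

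From the 45101 probe sets 64 controls were left out. Of the rest, 34945 have 1 gene symbol, 932 several and 9160 none, and only those with 1 were named. Log2 signals were compared with limma 3.58.1 (lmFit and eBayes) in R 4.3.3, High minus Low Exploration, with no filter, Benjamini-Hochberg adjustment over 45037 probe sets and a threshold of 0.05. No filter was used because every probe set of a member was kept. Gaps on the same array between 2 probe sets of the same gene were tested by exact 2-sided permutation over all assignments of the 10 arrays, and correlations by exact permutation within the groups (scipy 1.17.1). Lists covered wider endothelial, wider mural and vascular signalling genes, and markers of red blood cells, perivascular fibroblasts and meninges, perivascular macrophages, astrocytes, microglia, oligodendrocytes, neurons and choroid plexus. All member probe sets were named, from the vascular lists the 4 genes with the smallest unadjusted p, and from other lists the 2 with the smallest. The members and lists were chosen with earlier results of these data known. Averaging probe sets in the marker lists was chosen after the data were seen. Other alternatives covered a filter at the median of all means, median centring, quantile and cyclic loess normalisation, equal hybridisation controls, a pseudocount or a floor of 23.0 (the 10th percentile of all signals), a trended robust spread, array weights, the control level as a covariate, averaged probe sets and each array left out. On simulated data for this comparison over 45037 probe sets, limma recovered none of 50 true log2 differences of 1. It recovered 2 out of 50 where the difference was 2, 13 out of 50 where it was 3 and 25 out of 50 where it was 4. On the measured arrays 16.8% of all probe sets were lower and 4.48% higher at a limma unadjusted p under 0.05. Whether the recovery counts hold for the measured arrays was not tested.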

Additional observations from a re-analysis of the deposited data

Results flagged for a closer look

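In 5 of 38 groups of 5 arrays tested, 1 array stood apart from the other 4 by more than Dixon's 95% limit for 5 values, where chance gives about 1 in 20 groups. All are log2 signals of a single probe set. On Flt1 1451756_at Low Exploration replicate 1 was at 6.82, against at least 9.45 on the other Low Exploration arrays. On Flt1 1419300_at Low Exploration replicate 4 was at 6.27, the nearest other array being at 8.46, and on Flt1 1454037_a_at High Exploration replicate 4 was at 6.89, the nearest being at 7.93. On Abcb1a 1419759_at High Exploration replicate 3 was at 7.92 and the nearest at 8.35. On Rgs5 1420940_x_at Low Exploration replicate 5 was at 5.31 and the nearest at 7.92. Each of these arrays was the lowest of its group, they were 5 different mice, the probe sets belonged to 3 genes, and the cause was not tested.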

How the results depend on the processing

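No member probe set passed limma's threshold in any setting, leave-one-out included, and the lowest adjusted p of a member was 0.0663, for Rgs5 1420941_at among the 22518 probe sets kept by the filter, where 12 members were tested and 7 were lower. The count of all probe sets that passed, 3 higher and 29 lower, was less stable. It was 0 and 3 with the filter, 1 and 0 after each of median centring, quantile normalisation, cyclic loess and equal hybridisation controls, 4 and 54 with the pseudocount, 0 and 2 with a trended robust spread, 0 and 0 with the control level as a covariate, and 0 to 2 and 0 to 48 without single arrays, the most without High Exploration replicate 5. At an unadjusted p under 0.05, members numbered 5 as deposited and 2 with the covariate.

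After median centring, quantile normalisation, cyclic loess and equal hybridisation controls, in that order, the median difference was 0.23, 0.26, 0.34 and 0.32 for the members, 0.42, 0.42, 0.44 and 0.51 for the wider endothelial genes and 0.23, 0.28, 0.30 and 0.32 for the wider mural genes. For the signalling genes it was 0.21, −0.078, −0.086 and 0.30, and so turned under 2 of these settings. At equal controls 7 members were lower. In the same order of settings Flt1 1440926_at was at 0.23, 0.30, 0.34 and 0.32, Tek at 0.16, 0.17, 0.21 and 0.25, Abcb1a 1419759_at at 0.48, 0.39, 0.41 and 0.57 and Abcb1a 1419758_at at 0.24, 0.26, 0.34 and 0.33, and Flt1 1419300_at was at 0.070 at equal controls. Abcb1a 1419758_at was at 0.10 with the pseudocount and 0.24 with the floor. With the covariate, whose levels largely separate the groups, Flt1 1451756_at was at 0.017, Cldn5 at 0.0038, Abcb1a 1419759_at at 0.27, Abcb1a 1419758_at at 1.81, Rgs5 1420940_x_at at −0.42 and Vtn 1420484_a_at at −1.22. The cause was not tested.

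Without single arrays Abcb1a 1419759_at ran from −0.16 to 0.083, Abcb1a 1419758_at from −0.92 to 0.91 and Vtn 1420484_a_at from −0.48 to 0.70, and the other 16 member probe sets kept their sign. The median of the wider endothelial genes ran from −0.30 to 0.041. The count of pairs of probe sets with different effects was 0 in every setting tried. The 1 correlation that passed, of the Pdgfrb probe sets, became 0 without the arrays farthest from the median. No paired analysis was possible because the labels share no replicate numbers between the groups.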
